A study of Mus musculus with 3 samples.

Results

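*Spdef*, *Gfi1*, *Gfi1b*, *Foxa3*, *Neurog3*, *Neurod1*, *Pax4*, *Pou2f3*, *Sox9* and *Creb3l1* are transcription factors of the secretory lineages of the intestinal epithelium. They were chosen by symbol, and each symbol had 1 row among the 28692 genes of the count tables, so that 10 of 28692 genes are described here. Their transcripts were counted in single cells of small intestinal crypts from adult C57BL/6 mice aged 2-3 months, with 1 10x Genomics 3' library per genotype. The control library is labelled Olfm4-IRES-eGFPCreERT2 with CDC42+/flox, the KO library has the same Cre allele with CDC42flox/flox, and the rescue library adds Yapflox/flox and Tazflox/+ to the alleles of the KO. All 3 carry the inducible Cre recombinase driven from *Olfm4*, a gene of crypt base stem cells, and at least 1 floxed *Cdc42* allele, so that recombination starts in those cells. How many mice gave each library is not stated in the labels. *Cdc42* encodes a small GTPase that organises cell polarity, and *Yap* and *Taz* encode the co-activators of the Hippo pathway. The comparisons ask how the secretory programme differed between libraries with 1 and 2 floxed *Cdc42* alleles. The rescue library adds 2 floxed *Yap* alleles and 1 floxed *Taz* allele, so 1 *Taz* allele is not floxed. With 1 library per genotype no difference could be tested across mice, and the names control, KO and rescue stand for the libraries so labelled. All intervals are exact 95% intervals of counting error only. UMIs of a gene cluster in few cells, so the number of cell barcodes is given beside them.

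Intestinal crypt progenitors become absorptive or secretory through lateral inhibition by Notch. Cells that escape Notch signalling express *Atoh1*, which opens the secretory programme. *Spdef*, an ETS factor, drives goblet and Paneth cell maturation, *Gfi1* represses the endocrine fate in their precursors, *Foxa3* is a forkhead factor of gut endoderm, and *Creb3l1* is a membrane-bound factor of the secretory pathway stress response. *Neurog3* is switched on transiently in endocrine precursors and is followed by *Neurod1*, which drives endocrine differentiation, and *Pax4*, which acts in the choice among hormones. *Pou2f3* is the master factor of tuft cells, *Gfi1b* marks tuft cells in the intestine, and *Sox9* is needed for Paneth cells and is also expressed in crypt base progenitors.

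All members are protein-coding. On GRCm38 *Neurog3* is at chr10:62133090-62134763 on the plus strand, *Neurod1* at chr2:79452521-79456751, *Spdef* at chr17:27714352-27728955 and *Foxa3* at chr7:19013284-19023538, all 3 on the minus strand. Promoters of 6 of the 10 members were matched in RefSeq (GRCm38.p6). The stretches upstream of 4 starts are shown because the endocrine pair *Neurog3* and *Neurod1* and the goblet pair *Spdef* and *Foxa3* moved differently between the libraries. They are written 5' to 3' on the gene's strand and end before the first annotated exon. Capitals mark the E-box CANNTG, the binding motif of basic helix-loop-helix factors such as ATOH1, NEUROG3 and NEUROD1. It reads the same on both strands.
*Neurog3*, chr10:62132840-62133089, plus strand: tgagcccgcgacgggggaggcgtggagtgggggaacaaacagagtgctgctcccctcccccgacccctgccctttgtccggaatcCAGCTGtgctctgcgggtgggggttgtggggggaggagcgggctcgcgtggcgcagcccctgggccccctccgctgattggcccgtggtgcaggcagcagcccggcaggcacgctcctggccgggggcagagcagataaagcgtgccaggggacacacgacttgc
*Neurod1*, chr2:79456786-79456886, minus strand: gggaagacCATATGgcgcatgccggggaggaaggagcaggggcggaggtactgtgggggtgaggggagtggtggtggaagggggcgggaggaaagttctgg
*Foxa3*, chr7:19023540-19023789, minus strand: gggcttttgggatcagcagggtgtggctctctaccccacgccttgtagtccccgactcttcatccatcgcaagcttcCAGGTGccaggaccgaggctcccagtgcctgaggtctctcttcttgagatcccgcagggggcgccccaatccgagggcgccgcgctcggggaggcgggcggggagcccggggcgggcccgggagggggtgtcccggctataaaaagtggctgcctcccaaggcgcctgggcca
*Spdef*, chr17:27728956-27729201, minus strand: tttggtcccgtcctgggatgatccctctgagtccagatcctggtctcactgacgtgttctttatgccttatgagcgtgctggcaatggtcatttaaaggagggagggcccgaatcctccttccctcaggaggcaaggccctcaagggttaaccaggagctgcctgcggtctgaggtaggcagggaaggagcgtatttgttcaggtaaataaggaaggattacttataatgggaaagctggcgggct
*Neurog3*, *Neurod1* and *Foxa3* each held 1 E-box in the stretch shown, and *Spdef* held none. In *Neurog3* it was the form CAGCTG, which began at position -165 from the start. Of 32851 RefSeq promoters of 250 upstream bases, 66.2% held CANNTG and 13% held CAGCTG, so a match to either is a description and not a site. TGTTTAC, a forkhead motif searched on both strands, was in none of the 4 stretches and in 3.17% of all promoters.

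Epithelial barcodes had 2 or more UMIs of *Epcam* and none of *Ptprc*, with a minimum of 500 genes and 1000 UMIs and a limit of 20% on mitochondrial UMIs. They numbered 515, 1504 and 726 in the control, KO and rescue libraries, the order kept for all triplets of values below, with median depths of 33401, 41467 and 46115 UMIs. The mitochondrial limit alone removed 66.3%, 54.1% and 38.3% of all barcodes. The libraries shared 3 to 11 barcode sequences in pairs, and 0 among epithelial barcodes. Classes were set by 1 product gene each. Muc2-high barcodes (at least 10 *Muc2* UMIs per 10000) numbered 52, 189 and 38, Lyz1-high barcodes (at least 100 *Lyz1* UMIs per 10000) 38, 0 and 11, Chga-high barcodes (at least 5 *Chga* UMIs per 10000) 35, 13 and 13, and Dclk1-high barcodes (at least 1 *Dclk1* UMI per 10000) 6, 3 and 3. Of the remainder, Mki67-high barcodes numbered 47, 151 and 178, and the rest, called other, 330, 1137 and 483. Goblet markers summed to 143345, 226721 and 151342 CPM in Muc2-high barcodes, against at most 14326 CPM in any other class, barcodes past 2 limits left out. Paneth markers summed to 103169 and 107358 CPM in Lyz1-high barcodes of control and rescue, against at most 5710 CPM in the other classes, with *Pla2g2a* at 0. In barcodes past 2 or more limits they summed to 111636 and 27139 CPM in control and KO. Each list holds the gene that set the class. Around the *Muc2* limit, 37, 18 and 18 barcodes lay within 2-fold of it. Levels are CPM, the UMIs of a gene per 1000000 UMIs of the population. *Cdc42* was at 249 (242-256), 384 (379-389) and 383 (377-389) CPM in the epithelium, so the targeted transcript was not lower in the library labelled KO. Reads of a 3' library may lie outside the deleted exons, which no label names, so this does not check the genotype. *Yap1* was at 26.4, 24.6 and 20.4 CPM and *Wwtr1*, which encodes TAZ, at 7.33, 13.3 and 2.86 CPM, both lowest in the rescue library. Plasma cell markers summed to 0.701, 2.43 and 191 CPM in the epithelium and stromal markers to 0.377, 19.5 and 0.326, and their part in the results was not tested.

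In the whole epithelium no member was higher than in the control by 2-fold, and *Neurog3*, *Pax4*, *Pou2f3* and *Neurod1* were the lowest relative to it in the KO library among the 9 members counted. Of the 9 members that reached 20 UMIs in either library compared, 5 were at least 2-fold lower in the KO library (*Neurog3*, *Neurod1*, *Pax4*, *Pou2f3* and *Sox9*), where 25.3% of 12668 genes were. In the rescue library 7 of 9 were at least 2-fold lower than in the control (all but *Gfi1* and *Sox9*), where 11.6% of 12419 genes were. At least 2-fold higher were 0 of 9 members in each, where 10.8% and 3.52% of genes were. *Gfi1b* had 13, 3 and 2 UMIs and was left out of these counts. Between rescue and KO, 2 of 8 were at least 2-fold higher in rescue (*Neurod1* and *Pax4*) and 1 was at least 2-fold lower (*Spdef*), where 22.7% and 11.1% of 12743 genes were. The comparisons share libraries, so they are not independent. The median ratio of genes with at least 50 UMIs in both libraries was -0.27 (log2) for KO over control and 0.04 for rescue over control, and CPM ratios below are not shifted for it. With a mitochondrial limit of 10%, 8 members were at least 2-fold lower in the KO library, *Gfi1*, *Foxa3* and *Creb3l1* joining the 5. That limit left 174, 818 and 169 epithelial barcodes. With the class mix held at that of the control, 4 rather than 7 were at least 2-fold lower in the rescue library. The share of all genes past 2-fold was not computed for these 2 alternatives. Neither count is therefore read as particular to the members.

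**Figure D1:**
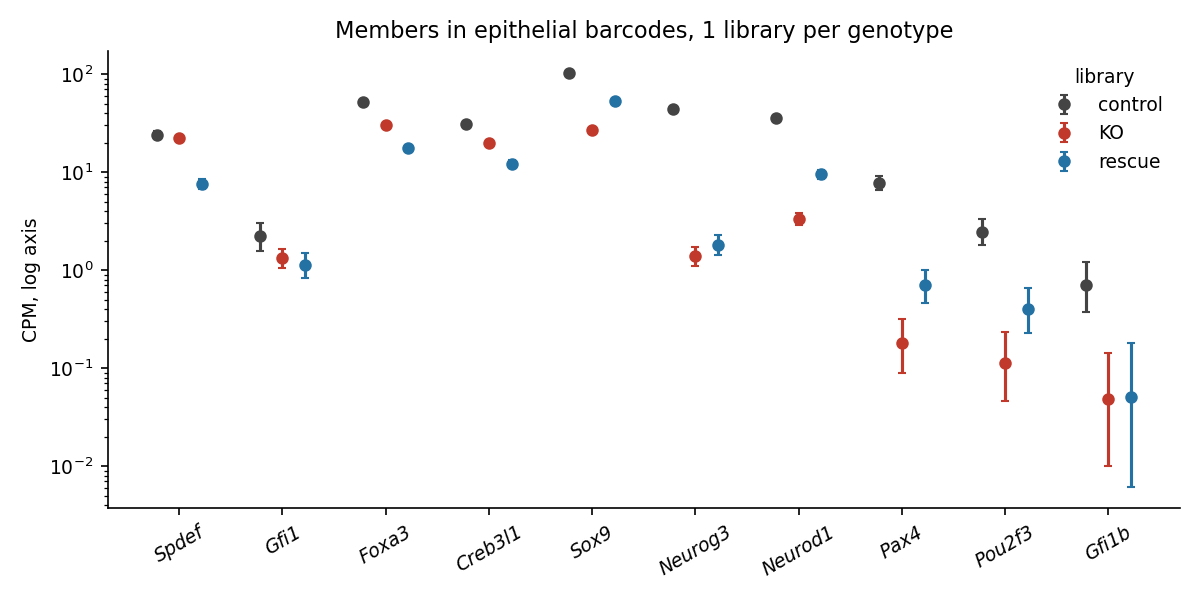
CPM of the 10 members over all epithelial barcodes on a log axis, for the control, KO and rescue libraries (1 library each). Points are values from summed UMIs and bars are exact 95% Poisson intervals of counting error. The control is the highest of the 3 for every member, though for *Spdef* and *Gfi1* control and KO intervals overlap. *Neurog3* lies at 44.5 CPM in the control against 1.39 and 1.81 in the others.

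*Neurog3*, the factor that commits a progenitor to the endocrine fate, had levels of 44.5 (41.5-47.7), 1.39 (1.11-1.71) and 1.81 (1.41-2.28) CPM. The control was high and the other libraries were both low. These are 826 UMIs in 31 of 515 barcodes, 85 UMIs in 3 of 1504 and 72 UMIs in 9 of 726. The level was 32.1-fold (25.7-40.7) lower in KO than in control and 24.6-fold (19.4-31.8) lower in rescue than in control, and the interval of rescue over KO (0.939 to 1.81-fold) holds no difference. With the 10% mitochondrial limit the rescue library was 7.44-fold (4.89-11.4) above KO, with *Neurog3* at 90.3 (83.1-97.8), 1.06 (0.754-1.44) and 7.86 (5.96-10.2) CPM. The KO value there is 40 UMIs of a single barcode, since the 3 KO barcodes with *Neurog3* held 40, 32 and 13. The 58 rescue UMIs there include 43 of a single barcode. No difference between rescue and KO is therefore read from this ratio, whose interval covers counting error only. Under the main limit single barcodes also carry much of the *Neurog3* level, since the top barcode held 12.2%, 47.1% and 59.7% of the UMIs. Without the top barcode of each library the log2 ratio to the control moved from -5.01 to -5.74 for KO and from -4.62 to -5.75 for rescue.

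*Neurod1*, which follows *Neurog3* and stays on in hormone-producing cells, was at 36.0, 3.36 and 9.49 CPM. It was seen in 58, 23 and 27 barcodes. The KO level was 10.7-fold (9.15-12.6) lower than the control and the rescue level 3.79-fold (3.34-4.31) lower, so the rescue library lay between the others, 2.83-fold (2.38-3.36) above the KO. *Pax4*, the paired-box factor of endocrine subtype choice, had the same order at 7.82, 0.179 and 0.703 CPM (145, 11 and 28 UMIs in 36, 4 and 11 barcodes). It was 43.6-fold (23.7-89.3) and 11.1-fold (7.38-17.3) lower than in the control. With the 10% mitochondrial limit the rescue ratio of *Neurod1* to the control was -1.0 (log2) instead of -1.92 and the KO ratio -4.23 instead of -3.42, so that rescue was 9.41-fold (7.78-11.4) above KO. *Pax4* then had -2.52 instead of -3.48 in rescue and -5.94 instead of -5.45 in KO, and rescue was 10.7-fold (5.02-24.4) above KO.

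The endocrine factors were spread differently over the classes, although 25 of 31 control barcodes with *Neurog3* also held *Neurod1*. In the control 86.0% of the *Neurog3* UMIs lay in barcodes of the class other and 13.7% in Chga-high barcodes, whereas 54.4% of the *Neurod1* UMIs lay in Chga-high barcodes. *Neurog3* and *Chga*, the granule protein of mature endocrine cells, shared 18 control barcodes, and 13 barcodes had *Neurog3* without *Chga* and 71 *Chga* without *Neurog3*. In the KO library these numbers were 1, 2 and 106, and in the rescue library 7, 2 and 153. Of the barcodes with *Chga* and without *Neurog3*, 37 of 71, 75 of 106 and 91 of 153 held a single *Chga* UMI, 30, 18 and 17 held *Neurod1*, and 21, 13 and 9 were Chga-high. *Chga* had a UMI in 2.46% of 366, 0% of 125 and 1.06% of 472 immune barcodes, at median depths of 4956, 4885 and 4804 UMIs, so a single *Chga* UMI is not read as endocrine expression.

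**Figure D2:**
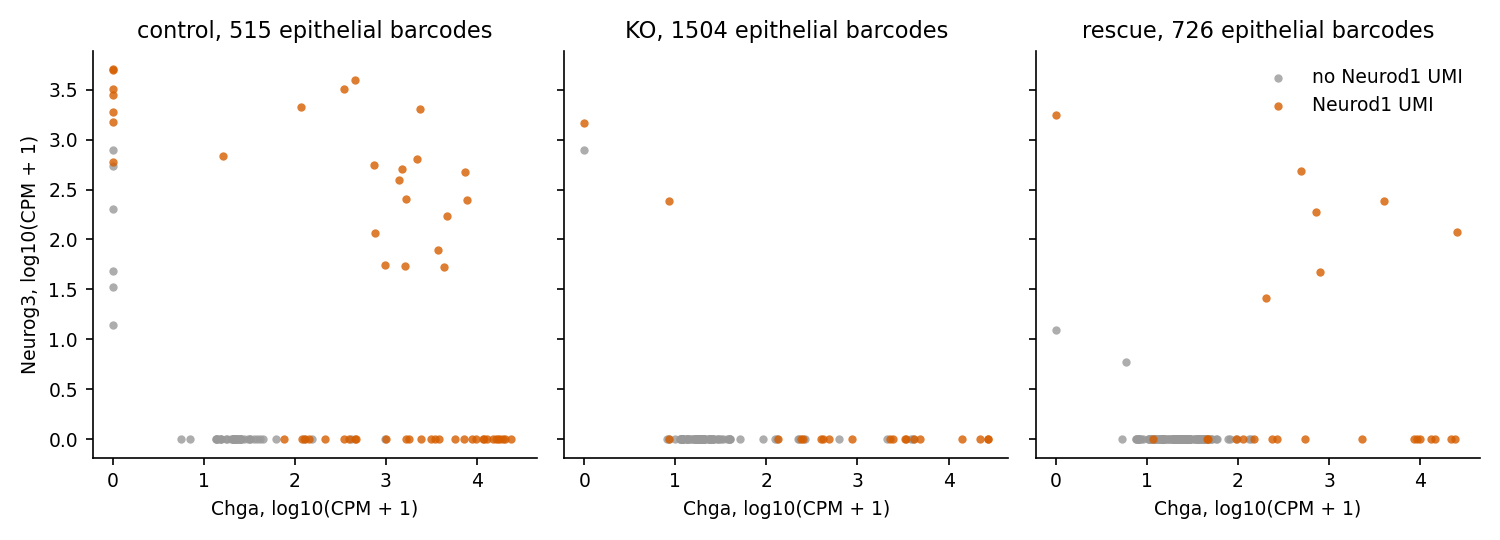
*Neurog3* against *Chga* in single epithelial barcodes with a UMI of either, as log10(CPM + 1), with 1 panel for each library (control, KO, rescue). Orange points hold a *Neurod1* UMI and grey points do not. The control has 31 barcodes with *Neurog3*, which run from no *Chga* to high *Chga*, and the KO library has 3.

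Barcodes with at least 3 UMIs of *Neurog3* numbered 23 in the control (4.47% of the epithelium, 2.85-6.63), 3 in the KO (0.199%, 0.0412-0.582) and 5 in the rescue library (0.689%, 0.224-1.60). In the 23 control barcodes *Neurog3* ran from 4 to 101 UMIs with a median of 31, at a median depth of 20312 UMIs. *Insm1*, a zinc finger factor of endocrine precursors, was detected in 22 of them, *Neurod1* in 20 and *Pax4* in 17, whereas *Spdef* was in 2 and *Pou2f3* in 0. *Dll1*, the Notch ligand presented by secretory precursors, was in 11, and *Mki67*, a gene of cycling cells, in 4. The 14 of these barcodes in the class other held *Chgb* at 636.8 CPM and *Gip* at 4.65 CPM, while 18 control barcodes of that class with at least 3 *Neurod1* UMIs held *Chgb* at 6352 CPM and the hormone transcripts *Gip* and *Cck* at 16870 and 19567 CPM. The Chga-high class therefore leaves out barcodes with hormone transcripts. In the 3 KO barcodes *Insm1* was detected in 3, *Neurod1* in 2 and *Pax4* in 0, and in the 5 rescue barcodes these numbers were 5, 5 and 4.

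Within Chga-high barcodes *Neurod1* was detected in nearly every barcode of all 3 libraries. It had 363 UMIs in 35 of 35 control barcodes, 140 UMIs in 11 of 13 KO barcodes and 233 UMIs in 13 of 13 rescue barcodes. *Neurog3* there had 113, 0 and 15 UMIs, in 14, 0 and 4 barcodes. *Pax4* had 65, 10 and 12 UMIs, in 20, 3 and 6 barcodes. KO and rescue each had 13 such barcodes, so these are given as counts with no ratio. Chga-high barcodes made up 6.80% (4.78-9.33), 0.864% (0.461-1.47) and 1.79% (0.957-3.04) of the epithelial barcodes of control, KO and rescue. Whether these shares follow the tissue or the barcodes lost at the mitochondrial limit cannot be told apart.

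Averaging the class levels with the class shares of the control separates the level within classes from their mix. *Neurod1* then differed from the control by -0.40 (log2) in KO and -0.09 in rescue, against -3.42 and -1.92 without it. This average does not stand for every class. In the class other *Neurod1* was at 27.9, 1.07 and 5.02 CPM, while most of its UMIs lay in the small Chga-high class. *Neurog3* kept -5.37 and -3.73, against -5.01 and -4.62. *Pax4* lay between them at -2.04 and -1.97, against -5.45 and -3.48. The average used 5 classes for KO, which had no Lyz1-high barcode, and 6 for rescue. It rests on small classes (13 Chga-high barcodes in each of KO and rescue), and it does not hold the mix within the class other, where most *Neurog3* UMIs lay.

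**Figure D3:**
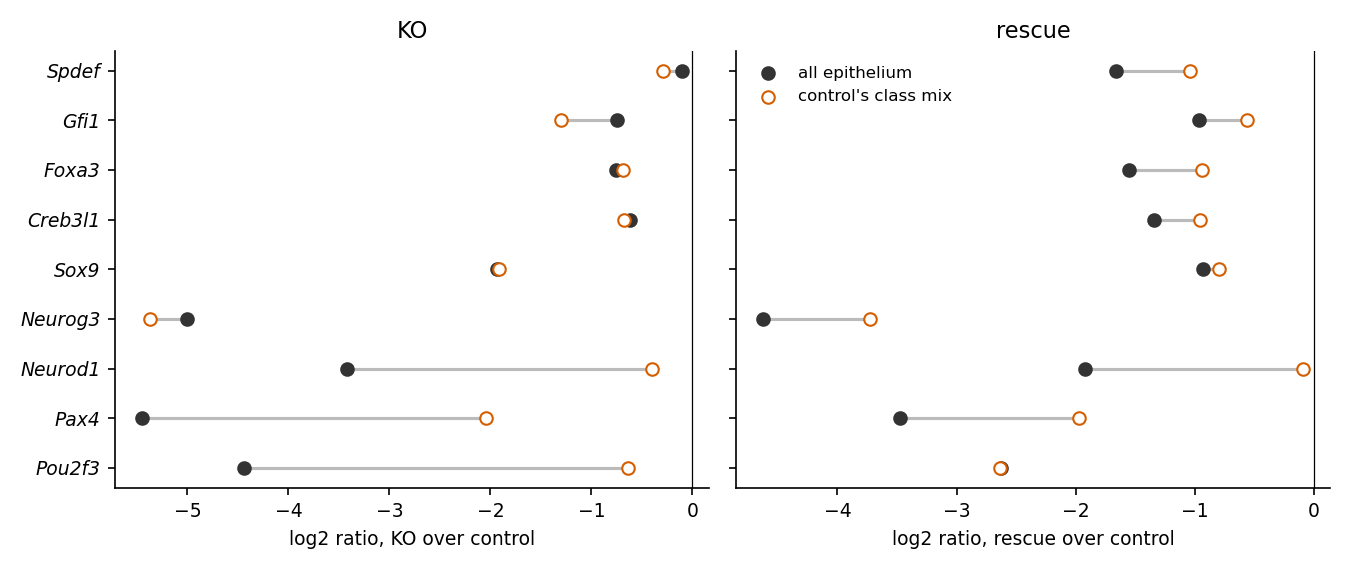
Log2 ratio to the control of 9 members in the KO library (left) and the rescue library (right), over all epithelial barcodes (filled points) and with the class shares of the control (open points). *Neurod1* moves from -3.42 to -0.40 in KO, and *Neurog3* and *Sox9* move little there.

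*Spdef*, the ETS factor of goblet and Paneth maturation, differed little between control and KO and was lower in the rescue library, at 24.2 (21.97-26.5), 22.4 (21.3-23.7) and 7.63 (6.80-8.54) CPM. The KO level was 1.08-fold (0.965-1.20) lower than the control, an interval that holds no difference, and the rescue level was 3.17-fold (2.73-3.67) lower. The sign of the KO difference turned with the processing, to 0.37 (log2) with no mitochondrial limit, 0.50 as the mean over barcodes, 0.16 with the median ratio set at 1 and 0.02 without the 2% deepest barcodes. It grew to -0.58 with the 10% mitochondrial limit (47.5, 42.4-53.1, against 31.8, 30.1-33.7 CPM), where the interval no longer holds no difference, and to -0.29 with the class mix of the control and -0.27 without mitochondrial and secretory product genes. The cells that held *Spdef* differed more. Muc2-high barcodes held 46.7%, 87.3% and 55.3% of its UMIs, and Lyz1-high barcodes held 24.8%, 0% and 8.55%. Barcodes past 2 or more limits held 2.68%, 5.88% and 0%. *Atoh1*, the factor upstream of the secretory fates, stood at 12.2, 11.6 and 7.55 CPM over the epithelium, and Muc2-high barcodes held 58.8%, 88.0% and 59.5% of its UMIs.

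*Foxa3*, the forkhead factor, stood at 51.6, 30.6 and 17.6 CPM, 1.69-fold (1.56-1.83) lower in KO and 2.93-fold (2.66-3.24) lower in rescue. *Creb3l1*, which turns on genes for secretory cargo transport, stood at 30.8, 19.998 and 12.1 CPM, 1.54-fold (1.39-1.70) and 2.54-fold (2.25-2.87) lower. Both were highest in the control and lowest in the rescue library, but with the 10% mitochondrial limit KO was the lowest, at 87.8, 42.1 and 49.2 CPM for *Foxa3* and 58.8, 22.8 and 25.6 CPM for *Creb3l1*. *Gfi1*, the repressor that keeps goblet and Paneth precursors from the endocrine fate, had 41, 81 and 45 UMIs in 26, 51 and 24 barcodes, or 2.21 (1.59-3.00), 1.32 (1.05-1.64) and 1.13 (0.824-1.51) CPM. Of the 26 control barcodes with *Gfi1*, 25 also held *Spdef*, as did 50 of 51 in KO and 20 of 24 in rescue, and 0 of 26 control barcodes held *Neurod1*.

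**Figure D4:**
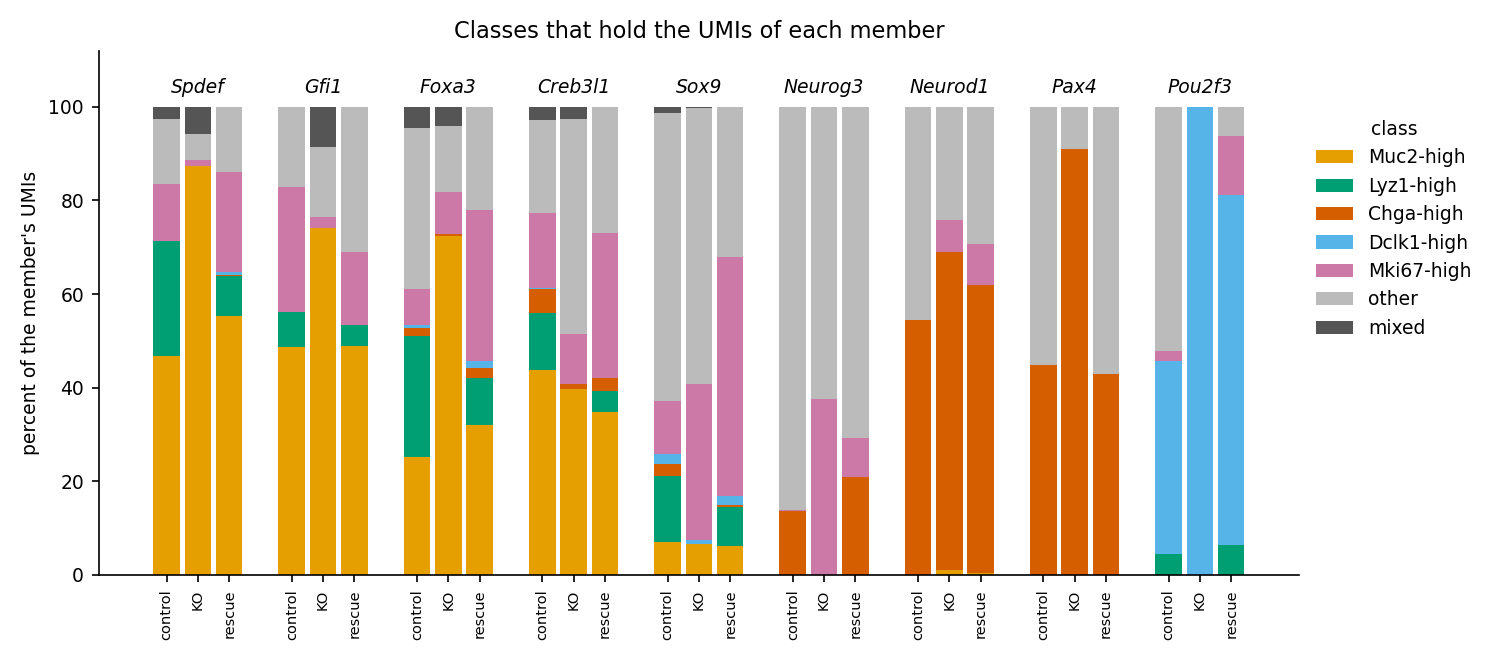
Percent of the UMIs of each of 9 members that lay in each class of epithelial barcodes, for control, KO and rescue. *Spdef* and *Foxa3* UMIs lie mostly in Muc2-high barcodes in the KO library (87.3% and 72.4%), while *Neurog3* UMIs lie mostly outside Chga-high barcodes in all 3 libraries.

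Within Muc2-high barcodes *Spdef* and *Foxa3* parted from *Sox9* and *Creb3l1* in the KO library. Of 5 members that reached 20 UMIs, 2 were at least 2-fold lower in KO than in control (*Sox9* and *Creb3l1*), where 20.9% of genes were, and 1 was in rescue (*Creb3l1*), where 6.7% were. At least 2-fold higher were 0 of 5 in each, where 13.9% and 10.6% of genes were. Between rescue and KO, *Spdef* was 2.17-fold (1.85-2.57) lower in rescue and *Sox9* 3.94-fold (3.02-5.13) higher, 1 of 5 members each way, where 9.79% and 18.6% of genes were. *Spdef* stood at 185 (160-211), 216 (204-228) and 99.4 (84.95-116) CPM, and *Foxa3* at 213 (187-242), 244 (231-257) and 133 (116-152). KO was thus at or above the control for these 2 factors, 1.17-fold (1.01-1.36) for *Spdef* and 1.15-fold (0.998-1.32) for *Foxa3*, and rescue was 1.86-fold (1.51-2.29) and 1.60-fold (1.33-1.93) lower than the control. *Atoh1* differed little, at 117, 113 and 106 CPM. *Creb3l1* was high in the control at 221 CPM (194-250) and lower in both others, at 87.7 (80.05-95.8) and 99.4 (84.95-116). *Neurog3*, *Pax4*, *Pou2f3* and *Gfi1b* had 0 UMIs in the Muc2-high barcodes of every library, and *Neurod1* had 0, 2 and 1. *Gfi1* stood at 17.7, 10.8 and 13.0 CPM from 20, 60 and 22 UMIs, with an interval of the KO ratio that holds no difference (0.936 to 2.76-fold lower). Of the 10 further goblet and Paneth factors listed below, 8 reached 20 UMIs there. In KO 5 of these were at least 2-fold lower than in control and 0 higher, and in rescue 3 were lower and 1 higher. Their median log2(CPM + 1) difference in KO was -1.36, against -0.28 over all genes tested.

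*Sox9*, needed for Paneth cells and expressed by crypt base progenitors, had the largest KO difference of those 5 members in Muc2-high barcodes. Its levels were 116 (96.7-137), 19.4 (15.9-23.4) and 76.3 (63.7-90.7) CPM. KO was low, 5.96-fold (4.59-7.77) below the control, and rescue lay 1.52-fold (1.18-1.95) below it. *Sox9* was detected in 69.2%, 16.9% and 47.4% of the Muc2-high barcodes, at median depths of 26585, 24837 and 34667 UMIs. Thinned to 5000 UMIs the shares were 20.5%, 3.8% and 34.3% of 39, 158 and 35 barcodes, so no order of control and rescue is read from them. In immune barcodes (*Ptprc* at least 1, no *Epcam*), which should lack it, *Sox9* had 8, 3 and 2 UMIs in 366, 125 and 472 barcodes. With the class limits doubled the KO ratio in Muc2-high barcodes was -3.06 (log2) instead of -2.58.

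Other marker lists moved with the same class. In Muc2-high barcodes 10 of 10 enterocyte markers were above 0 in every library and summed to 1668, 18843 and 5978 CPM, and stem cell markers summed to 308, 74.7 and 299 CPM, with *Lgr5* at 0 in KO. The part of these in the *Sox9* and *Creb3l1* values was not tested. Immune markers summed to 40.6, 10.4 and 27.2 CPM there, with *Ptprc* at 0 by the filter. *Creb3l1* and *Gfi1* are expressed by immune barcodes themselves, with 62, 10 and 20 UMIs of *Creb3l1* and 30, 19 and 116 of *Gfi1*. Of the *Creb3l1* UMIs, 59, 3 and 15 were in barcodes with at least 2 UMIs of *Cd3e*, which encodes a CD3 subunit of the T cell receptor complex. *Cd3e* had 7, 0 and 5 UMIs in Muc2-high barcodes, against 250, 488 and 168 of *Creb3l1* and 20, 60 and 22 of *Gfi1*. *Gfi1* stood at 16.4, 20.1 and 45.1 CPM in immune barcodes, against 17.7, 10.8 and 13.0 CPM in Muc2-high barcodes. The immune part of its Muc2-high values was not tested.

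**Figure D5:**
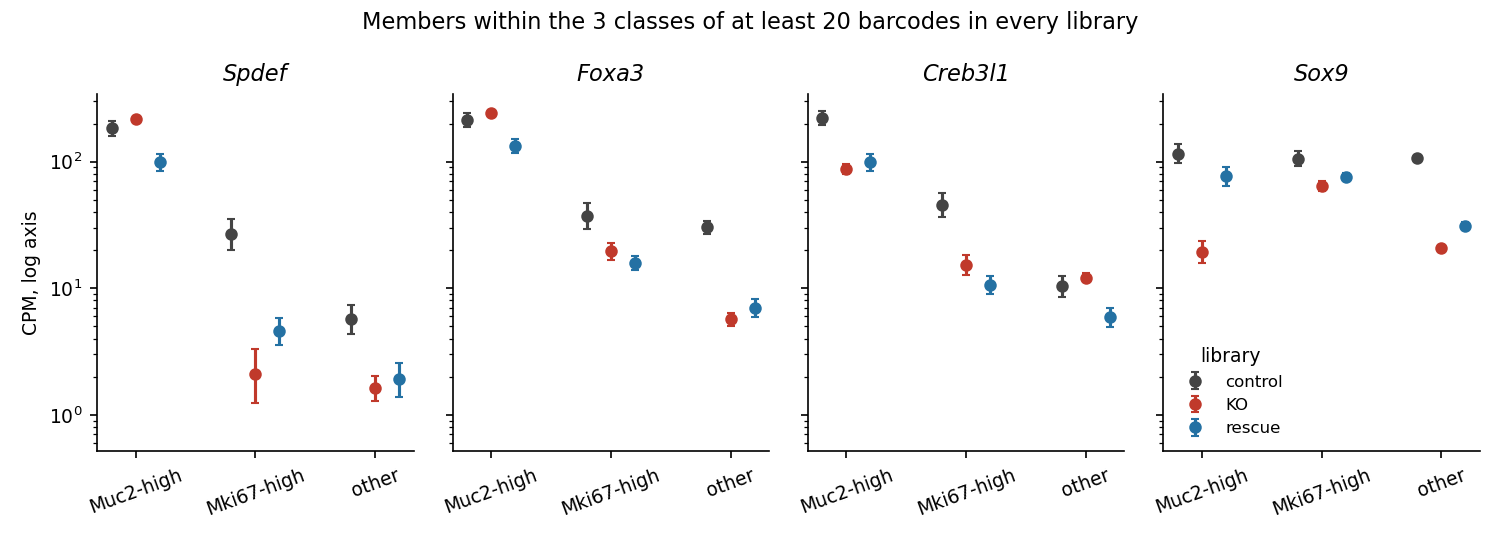
CPM of *Spdef*, *Foxa3*, *Creb3l1* and *Sox9* in Muc2-high, Mki67-high and other epithelial barcodes of the control, KO and rescue libraries, on a log axis. Bars are exact 95% Poisson intervals of counting error. *Sox9* in KO drops to 19.4 CPM in Muc2-high and 20.6 in other barcodes but stays at 64.3 in Mki67-high barcodes.

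Over the whole epithelium *Sox9* stood at 102 (97.4-107), 26.7 (25.4-28.0) and 53.4 (51.1-55.7) CPM, in 293, 495 and 365 barcodes. KO was 3.82-fold (3.57-4.08) and rescue 1.91-fold (1.80-2.03) lower than the control, and rescue was 2.00-fold (1.87-2.13) above KO. The loss differed by class. In Mki67-high barcodes, the cycling cells, *Sox9* stood at 105, 64.3 and 76.3 CPM, 1.64-fold (1.39-1.92) and 1.38-fold (1.19-1.60) lower than in the control. Of 8 members that reached 20 UMIs in the class other, 7 were at least 2-fold lower than in the control in both KO and rescue (all but *Creb3l1*), where 36.7% and 14.7% of genes were, and 0 at least 2-fold higher, where 9.34% and 2.21% were. Between rescue and KO 2 of 6 were at least 2-fold higher there (*Neurod1* and *Neurog3*) and 1 lower (*Creb3l1*), where 24.5% and 10.7% of genes were. The *Neurog3* call rests on 53 UMIs in 2 KO barcodes and 51 UMIs in 2 rescue barcodes. A single barcode held 40 of the KO UMIs and 43 of the rescue UMIs, so no difference is read from it. *Sox9* in the class other stood at 107, 20.6 and 30.9 CPM, 5.20-fold (4.77-5.67) and 3.48-fold (3.16-3.82) lower. Enterocyte markers in that class summed to 37612, 78144 and 25388 CPM and stem cell markers to 1137, 45.1 and 195 CPM, so its makeup differed between the libraries. With the 10% mitochondrial limit the *Sox9* difference between rescue and control was -0.16 (log2) instead of -0.93, while that of KO was -1.83 instead of -1.93.

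Lyz1-high barcodes, with the Paneth product lysozyme, could be read in the control alone at 38 barcodes. *Sox9* stood there at 75.7 CPM (66.9-85.3), *Foxa3* at 70.0 (61.5-79.3), *Spdef* at 31.5 (25.9-37.9) and *Creb3l1* at 19.8 (15.5-25.1), and *Gfi1* had 3 UMIs. The 11 rescue barcodes held 181, 70, 26 and 22 UMIs of *Sox9*, *Foxa3*, *Spdef* and *Creb3l1*, each in 10 or 11 of them. The KO library had 0 of 1504 barcodes in this class, an upper limit of 0.245%, and 31 barcodes within 2-fold of the limit on *Lyz1*. The class leaves out 11 KO barcodes past 2 or more limits, whose Paneth markers summed to 27139 CPM. The 0 is therefore not a count of KO barcodes past the *Lyz1* limit. The CPM of *Spdef* was lower in Lyz1-high than in Muc2-high barcodes of the control (31.5 against 185), and so was that of *Creb3l1* (19.8 against 221). The median depths of these classes were 96158.5 and 26585 UMIs, and *Spdef* was detected in 81.6% and 80.8% of their barcodes. The CPM gap is thus in part one of total UMIs per barcode.

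Among cycling barcodes the levels of *Spdef*, *Atoh1*, *Creb3l1* and *Foxa3* were lower in KO and rescue, from few barcodes for *Spdef* and *Atoh1*. *Spdef* in Mki67-high barcodes stood at 26.8, 2.11 and 4.57 CPM, with 54, 18 and 65 UMIs, 12.7-fold (7.35-23.1) lower in KO and 5.87-fold (4.01-8.55) in rescue. These UMIs lay in 5 of 47 (10.6%, 3.55-23.1), 8 of 151 (5.30%, 2.31-10.2) and 9 of 178 barcodes (5.06%, 2.34-9.38), shares whose intervals overlap. The top barcode held 17, 8 and 31 of the UMIs. Without it *Spdef* was at 18.9, 1.18 and 2.42 CPM, 16.03-fold and 7.81-fold lower than the control, and rescue was 2.05-fold above KO. With the top barcode left out of rescue alone, its 2.42 CPM lay near the 2.11 CPM of all KO barcodes. *Atoh1* had the same order, at 20.4, 1.17 and 5.56 CPM, from 41, 10 and 79 UMIs in 7, 6 and 11 barcodes. Without its top barcode *Atoh1* was at 11.7, 0.588 and 4.62 CPM. *Creb3l1* stood at 45.7, 15.3 and 10.6 CPM and *Foxa3* at 37.3, 19.7 and 15.9. Without the top barcode these were 35.7, 14.4 and 8.45 CPM and 34.0, 18.7 and 14.1 CPM. Of 5 members that reached 20 UMIs there, 2 were at least 2-fold lower in KO (*Spdef* and *Creb3l1*) and 3 in rescue (*Foxa3* too), where 7.17% and 5.2% of genes were. At least 2-fold higher was 1 of 5 in each (*Neurog3* in KO, *Neurod1* in rescue), where 6.97% and 3.82% were. Between rescue and KO 1 of 6 was higher (*Spdef*) and 1 lower (*Neurog3*), where 6.55% and 5.6% were. *Neurog3* had 2, 32 and 6 UMIs there, and the 32 of KO came from 1 barcode. *Neurod1* had 0, 14 and 33 UMIs, in 0, 3 and 4 barcodes.

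The tuft factors were rare. *Pou2f3* had 46, 7 and 16 UMIs in 15, 2 and 7 barcodes, or 2.48 (1.82-3.31), 0.114 (0.0459-0.235) and 0.402 (0.230-0.652) CPM, 21.7-fold (9.75-57.1) and 6.18-fold (3.43-11.7) lower in KO and rescue than in control. Dclk1-high barcodes, of which there were 6, 3 and 3, held 19, 7 and 12 of these UMIs. *Gfi1b* had 6, 3 and 2 UMIs in the same barcodes and 13, 3 and 2 in all. *Sox9* was detected in 15 of 15, 2 of 2 and 7 of 7 *Pou2f3* barcodes. Of 7 control barcodes with *Gfi1b*, 5 held *Pou2f3* and 0 held *Gfi1*, its close relative.

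Members were detected together in lineage pairs. In the control 35 of 36 barcodes with *Pax4* held *Neurod1*, 25 of 31 with *Neurog3* did, and 1 of 97 with *Spdef* did. *Foxa3* was found in 84 of 97 *Spdef* barcodes, 17 of 31 *Neurog3* barcodes and 15 of 15 *Pou2f3* barcodes. Over the whole control epithelium *Foxa3* was found in 235 of 515 barcodes (45.6%). Its share of *Neurog3* barcodes (54.8%) lies near that, so it is not read as a trait of the endocrine lineage. *Sox9* was found in 80.4% of *Spdef* barcodes in the control, 23.6% in KO and 66.7% in rescue. *Pax4* barcodes of KO and rescue all held *Neurod1* (4 of 4 and 11 of 11). Detection of pairs rises with depth, which differs among barcodes.

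Genes most alike a member were ranked by Pearson's r of log2(CPM + 1) over the 11 library-by-class groups of at least 20 barcodes, as a description without a test. The groups share libraries, and many genes have r near the top. Chga-high enters for the control alone, at 612 CPM of *Neurod1* and 110 CPM of *Pax4*. In the control class other these were at 27.9 and 7.35 CPM, and in the remaining groups at most 5.02 and 0.724 CPM. The r of both thus rests mainly on these 2 control groups. For *Neurod1* they were *Scgn*, *Pax6* and *Isl1* (r of 0.996, 0.992 and 0.991), for *Pax4* *Ooep*, *St18* and *Myt1* (0.996, 0.995 and 0.992), and for *Neurog3* *Gfra3*, *Slc39a2* and *Neurod2* (each 0.96 to 2 decimals). For *Spdef* they were *Stxbp6*, *Ano7* and *Tpsg1* (0.96 each), for *Gfi1* *Atoh1* led (0.97), for *Foxa3* *Klk1* (0.98), for *Creb3l1* *Inpp4b* (0.96) and for *Sox9* *Map2k6* (0.94). *Gfi1b* and *Pou2f3* had 6 and 30 UMIs in these groups and were not read.

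Other factors of the same pathways were taken from lists, whose lowest and highest members are named by the ratio of CPM in KO over control. On the log2(CPM + 1) scale of the medians the lowest were *Nkx2-2* and *Insm1* (endocrine), *Sox4* and *Lfng* (commitment and Notch), *Bhlha15* and *Foxa2* (goblet and Paneth) and *Sox4* and *Zfhx3* (tuft), and *Foxa2* and *Hmx3* took the place of *Mlxipl* and *Zfhx3* among the highest. Of 16 further endocrine factors, 15 were at least 2-fold lower in KO than in control (25.3% of all genes) and 14 in rescue (11.6%), with median log2(CPM + 1) differences of -2.28 and -1.68 against -0.28 and 0.01 over all genes tested. The homeodomain factor *Nkx2-2* and the winged helix factor *Rfx6*, both needed for endocrine differentiation, had the lowest KO ratios. *Nkx2-2* was at 23.9, 0.619 and 3.26 CPM and *Rfx6* at 9.22, 0.310 and 1.83 CPM. *Foxa1* and *Mlxipl* had the highest. *Foxa1* was the exception in KO at 28.4, 14.6 and 16.8 CPM, 1.94-fold (1.74-2.16) lower, and *Mlxipl*, a glucose-responsive factor, was at 66.3, 16.2 and 55.5 CPM. *Insm1* stood at 40.1, 1.39 and 6.58 CPM, 28.9-fold (23.1-36.7) and 6.10-fold (5.29-7.05) lower.

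Of 12 genes of secretory commitment and Notch signalling, 8 were at least 2-fold lower in KO and 5 in rescue (25.3% and 11.6% of all genes, also for the lists below), with medians of -1.37 and -0.77. *Dll1* stood at 27.4, 6.24 and 13.05 CPM, and *Hes1*, the repressor that Notch turns on, at 106, 42.0 and 83.3. *Mfng* and *Lfng*, glycosyltransferases that modify Notch receptors, were lowest in KO, with 34, 3 and 15 UMIs and 154, 33 and 98 UMIs. *Id1* and *Atoh1* were the highest relative to the control in KO, at 155 and 162 CPM for *Id1* in control and KO. Of 10 goblet and Paneth factors 6 and 4 were at least 2-fold lower in KO and rescue (medians -1.16 and -0.86). *Spib* and *Bhlha15* were the lowest in KO, with 51, 7 and 32 UMIs and 101, 27 and 126 UMIs, and *Klf4* and *Xbp1* the highest, at 132, 254.8 and 76.5 CPM and at 163, 147 and 174 CPM. Of 6 tuft factors 5 and 4 were at least 2-fold lower, and *Runx1* was the exception in KO at 8.63, 11.8 and 4.69 CPM, with *Zfhx3* next at 36.4, 6.60 and 21.9 CPM. *Hmx3*, with 21, 0 and 8 UMIs, and *Spib* had the lowest ratios. Of 12 absorptive factors, by contrast, 1 was at least 2-fold lower (*Cdx1*, 85.4 and 42.2 CPM) and 2 at least 2-fold higher (*Creb3l3*, 164 and 488 CPM, and *Hnf4a*, 126 and 276 CPM) in KO, where 10.8% of all genes were higher, and 0 either way in rescue, where 3.52% were higher, with medians of 0.07 and 0.10. *Elf3* was the next lowest in KO at 357.5, 232 and 295 CPM. *Foxa1*, *Foxa2*, *Sox4* and *Spib* each stand in 2 of these lists.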

How the data were processed

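Each deposited matrix held a count of UMIs per gene and barcode, and no other unit was used. Per the submitters' processing notes the tool was Cell Ranger 1.3.0, while per the file headers it was Cell Ranger 3.0.2 for control and KO and 3.1.0 for rescue. No label or header names a build (not given in the sources used here). Gene coordinates come from GENCODE vM21 (GRCm38). Epithelial barcodes and classes were cut as given in the text. A barcode past 2 or more class limits was called mixed (7, 11 and 0) and entered no class. No doublet caller was run. UMIs were summed per library and class and divided by all UMIs (CPM). Intervals were exact Poisson for levels, exact binomial for shares and conditional exact binomial for ratios, at 95%. Only the ratio intervals were tested on simulated data. Gene totals were drawn there as independent Poisson counts, so the test does not cover the clustering of UMIs in few cells. A first run fell short of its set threshold, and the number of draws was raised after that was seen. A member was called at a ratio of 2-fold where either library reached 20 UMIs. With 1 library per genotype no model was fitted. Classes under 20 barcodes are given by counts. The members, lists and limits were chosen with earlier results of these data known. Named from each list were *Atoh1*, *Hes1*, *Dll1*, *Insm1* and the 2 highest and 2 lowest KO ratios. Alternatives changed the filters, scaling, class mix and limits. Python 3.11.15, numpy 2.4.6, scipy 1.17.1 and pandas 2.3.3 were used.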

Additional observations from a re-analysis of the deposited data

How the results depend on the processing

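With 1 library per genotype, neither mouse nor library variation is known, and no replicate could be left out. No paired analysis was possible because each group has 1 library and no test was run. The 10% mitochondrial limit gave 8 members at least 2-fold lower in KO than in control (5 in the text), since *Gfi1*, *Foxa3* and *Creb3l1* moved past 2-fold, and the class mix of the control gave 4 in rescue (7 in the text). Over the other alternatives these counts ran from 4 to 6 and from 5 to 9, and the counts of higher members were 0 under all. The share of all genes past 2-fold was not computed under the alternatives. The sign turned for *Spdef*, KO over control, to 0.37 with no mitochondrial limit, 0.0182 without the 2% deepest barcodes, 0.50 as the mean of per-barcode CPM and 0.16 with the median ratio set at 1, for *Gfi1b*, KO over control, to 0.14 with the class mix of the control, and for *Gfi1* in Muc2-high barcodes, rescue over control, to 0.0377 with doubled limits. Of the ratios over the epithelium 147 kept their value within the counting interval, 64 left it with the same sign and 5 turned. Within Muc2-high barcodes these numbers were 22, 7 and 1. Leaving out the top barcode of each member, over the epithelium and in Mki67-high barcodes, was chosen after seeing the data. Members at a few UMIs (*Gfi1b*, *Pou2f3*, *Gfi1*) are limited by depth.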
